A study of Homo sapiens with 2 samples.

Results

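The miR-17-92a cluster on chromosome 13 and the miR-106b-25 cluster on chromosome 7 were examined in small RNA sequencing of hCMEC/D3, a human line of brain capillary endothelial cells, immortalised to study the blood-brain barrier in culture. All rows of the deposited count table whose hairpin (precursor) is hsa-mir-17, hsa-mir-18a, hsa-mir-19a, hsa-mir-20a, hsa-mir-19b-1 or hsa-mir-92a-1 (chromosome 13), or hsa-mir-106b, hsa-mir-93 or hsa-mir-25 (chromosome 7), were taken. These 9 hairpins of 1600 gave 18 rows of 2363, a 5p and a 3p arm for each hairpin. The study has a single group as far as the labels state, with 2 libraries numbered replicate 2 and replicate 8. The labels give no time, treatment or passage, and nothing says that the replicates came from separate cultures. SDs below therefore measure only the spread between these libraries, which may be technical. The tests below compare the 2 libraries against counting error alone and hold no spread between replicates.

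A mature miRNA that the table lists for several hairpins was counted by its highest row alone, and the libraries then held 2721287 counts (replicate 2) and 2727675 counts (replicate 8). Levels are given as counts scaled to a total of 1000000 (CPM), and 3 counts, the limit that a count of 0 allows, correspond to 1.10 CPM in either library. The labelled cell type was checked against miRNA markers. The endothelial miR-126-3p and miR-126-5p summed to 110105 and 115735 CPM. Counts were 0 in both libraries for each of the 3 listed blood miRNAs (miR-144-3p, miR-223-3p, miR-142-3p). For miR-124-3p, a miRNA of neurons, there were 3 and 1 counts, and the mural pair miR-143-3p and miR-145-5p summed to 835 and 393 CPM. The 3 epithelial miRNAs summed to 48.9 and 31.2 CPM and the liver miR-122-5p was at 235 and 252 CPM. These lists are short and do not show that miRNAs of a cell type are absent. Some miRNAs outside them, picked after their values were seen, were counted. Among those also found in blood cells, miR-486-5p had 841 and 566 counts and miR-150-5p 622 and 503. For miR-9-5p, also found in neurons, there were 117 and 92. The part of these other cell types' miRNAs in the results below was not tested.

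A miRNA cluster of this kind is transcribed as a single primary transcript, from which the nuclear enzyme Drosha cuts each hairpin. Dicer then removes the loop, and usually a single arm of the remaining duplex is kept by an Argonaute protein and guides it to mRNAs, mainly through the seed, bases 2 to 8 of the mature miRNA. The miR-17-92a cluster, also known as oncomiR-1, is carried by the noncoding host gene MIR17HG, is activated by MYC and E2F factors and promotes proliferation and survival. Its relative miR-106b-25 lies within MCM7, which encodes a subunit of the replicative helicase. In endothelial cells miR-92a is known for restraining angiogenesis, with KLF2 and integrin alpha 5 among its targets, and the miR-17 family is known for repressing the cell cycle inhibitor CDKN1A.

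In GRCh37 the 6 hairpins of the miR-17-92a cluster lie within 787 bases on the plus strand of chromosome 13, from MIR17 at 92002859 to 92002942 to MIR92A1 at 92003568 to 92003645. The hairpins between them are MIR18A at 92003005 to 92003075, MIR19A at 92003145 to 92003226, MIR20A at 92003319 to 92003389 and MIR19B1 at 92003446 to 92003532. Of 16 annotated MIR17HG transcripts, 11 span the hairpins, and 3 of the 11 have an exon over each of them while the others pass them in an intron. The 3 hairpins of the miR-106b-25 cluster lie within 515 bases on the minus strand of chromosome 7, in the transcript order MIR106B at 99691616 to 99691697, MIR93 at 99691391 to 99691470 and MIR25 at 99691183 to 99691266. All are on the strand of MCM7, and 9 of its 13 transcripts span them. MIR106B and MIR25 are intronic in all 9, and MIR93 overlaps an exon in 1.

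Both clusters carry the miR-17 and miR-92/25 seeds, and the miR-18 and miR-19 seeds occur in the miR-17-92a cluster alone. The mature sequences are shown to make the shared seeds and the arms that carried the counts visible. All 18 mature sequences and 8 of the 9 hairpins were matched by name in RefSeq (GRCh38.p14), and the hairpin of mir-93 was not. The seed is in capitals. The miR-17 seed is carried by 4 arms:
miR-17-5p: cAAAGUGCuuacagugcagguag
miR-20a-5p: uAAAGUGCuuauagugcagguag
miR-93-5p: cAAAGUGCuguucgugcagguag
miR-106b-5p: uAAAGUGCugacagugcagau
The miR-18 seed differs from it inside the seed, at the base given by the substitution A4G between miR-17-5p and miR-18a-5p (positions from 1 at the 5′ end, miR-17-5p first):
miR-18a-5p: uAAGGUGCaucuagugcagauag
The miR-19 seed is carried by 2 arms that differ at a single base, U11C (miR-19a-3p first):
miR-19a-3p: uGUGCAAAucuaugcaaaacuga
miR-19b-3p: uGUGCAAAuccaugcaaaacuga
The miR-92/25 seed is carried by the last hairpin of each cluster:
miR-92a-3p: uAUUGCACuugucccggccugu
miR-25-3p: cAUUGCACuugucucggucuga
The remaining arms shown have seeds of their own, and are shown because 2 of them outnumbered the opposite arm and the third was abundant:
miR-106b-3p: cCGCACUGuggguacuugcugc
miR-18a-3p: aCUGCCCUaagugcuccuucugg
miR-25-5p: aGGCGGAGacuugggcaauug

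Together the 18 rows held 3.15% ± 0.15 of all counts (SD, n = 2), and a few arms made up nearly all of it. The miR-17-92a rows summed to 49522 counts in replicate 2 and 46844 in replicate 8, shares of 1.82% (95% Wilson interval 1.80 to 1.84) and 1.72% (1.70 to 1.73). The miR-106b-25 cluster had 38998 and 36084 counts, or 1.43% (1.42 to 1.45) and 1.32% (1.31 to 1.34). Within each cluster the intervals of the 2 libraries did not overlap, although reads are not independent molecules and intervals cover counting error only. The miR-106b-25 sum was therefore below the miR-17-92a sum in both libraries, at 0.779 ± 0.0122 of it (SD, n = 2). That order rested on miR-92a-3p, whose reads are also listed at a second hairpin. With miR-92a-3p and miR-19b-3p left out, the miR-106b-25 sum was 5.26 ± 0.183 times that of the remaining miR-17-92a arms, 5.13 in replicate 2 and 5.39 in replicate 8.

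Of the 18 rows, 15 reached 10 counts in each library and were called detected, against 26.4% of all rows of the table. All 9 leading arms, the arm of each hairpin with more counts, were among them. The 3 rows below that limit were all minor arms of the miR-17-92a cluster: miR-20a-3p with 1 and 3 counts, miR-19b-1-5p with 0 and 1, and miR-19a-5p with none in either library.

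Most of the counts listed for the chromosome 13 cluster were at its last hairpin, under a name shared with chromosome X. For miR-92a-3p the table holds 41571 counts in replicate 2 and 39888 in replicate 8, or 14950 ± 462 CPM (SD, n = 2), and was at rank 17 of 2042 miRNA names by mean CPM. Of the cluster's counts it made up 83.9% (Wilson interval 83.6 to 84.3) in the first library and 85.2% (84.8 to 85.5) in the second. Without it the rest of the cluster held 0.292% and 0.255% of all counts. The table also lists miR-92a-3p at the hairpin mir-92a-2 on chromosome X, with 41218 and 39564 counts, since both hairpins contain the same mature sequence. The opposite arms differ in sequence between these hairpins: miR-92a-1-5p, from chromosome 13, had 647 and 670 counts, and miR-92a-2-5p, from chromosome X, had none in either library.

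The first hairpin and mir-20a gave the next levels in the chromosome 13 cluster. The arm miR-17-5p, the founding member of its seed family, had 4317 and 3502 counts, or 1435 ± 214 CPM (SD, n = 2). The related miR-20a-5p had 1657 and 1736 counts, or 623 ± 19.5 CPM. The ratio of miR-17-5p to miR-20a-5p was 2.61 in replicate 2 and 2.02 in replicate 8, so miR-17-5p was the higher in both libraries. These mature sequences differ at 2 of 23 bases, C1U and C12U.

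The hairpins mir-18a, mir-19a and mir-19b-1 gave the lowest leading arms of the chromosome 13 cluster. The leading arm of mir-18a was the 3p arm, with 654 and 486 counts for miR-18a-3p, 209 ± 43.9 CPM (SD, n = 2). The miR-18a-5p arm, which carries the miR-18 seed and is known for targeting the matrix genes CCN2 (CTGF) and THBS1, had 154 and 138 counts. The miR-19 arms, known for their part in the oncogenic action of the cluster, were the lowest leading arms. For miR-19b-3p there were 354 and 264 counts, or 113 ± 23.5 CPM, and the same reads are nearly all listed again at mir-19b-2 on chromosome X, with 354 and 262 counts. For miR-19a-3p there were 33 and 13 counts, or 8.45 ± 5.20 CPM, at rank 460. Although miR-19a-3p and miR-19b-3p share 22 of 23 bases, miR-19b-3p had 10.7 times the counts of miR-19a-3p in replicate 2 and 20.3 times in replicate 8. How a read with a mismatch at the differing base was assigned is not given in the sources used here.

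The 3 hairpins of the MCM7 cluster lay close together. The arm miR-25-3p had 15884 and 14967 counts, or 5662 ± 247 CPM (SD, n = 2), at rank 33 in both libraries. It was followed by miR-106b-3p with 11725 and 11374 counts, or 4239 ± 98.1 CPM, at rank 36 in both. The arm miR-93-5p had 8048 and 7368 counts, or 2829 ± 181 CPM. In the order of the 9 leading arms (miR-92a-3p, miR-25-3p, miR-106b-3p, miR-93-5p, miR-17-5p, miR-20a-5p, miR-18a-3p, miR-19b-3p, miR-19a-3p), no neighbours overlapped between the libraries, so the order was the same in both. Among all 18 arms, 6 pairs of neighbours overlapped, for example miR-25-5p with miR-20a-5p and miR-92a-1-5p with miR-18a-3p. A difference between miRNAs within a library also holds how well each was ligated and amplified, which was not tested.

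**Figure D1:**
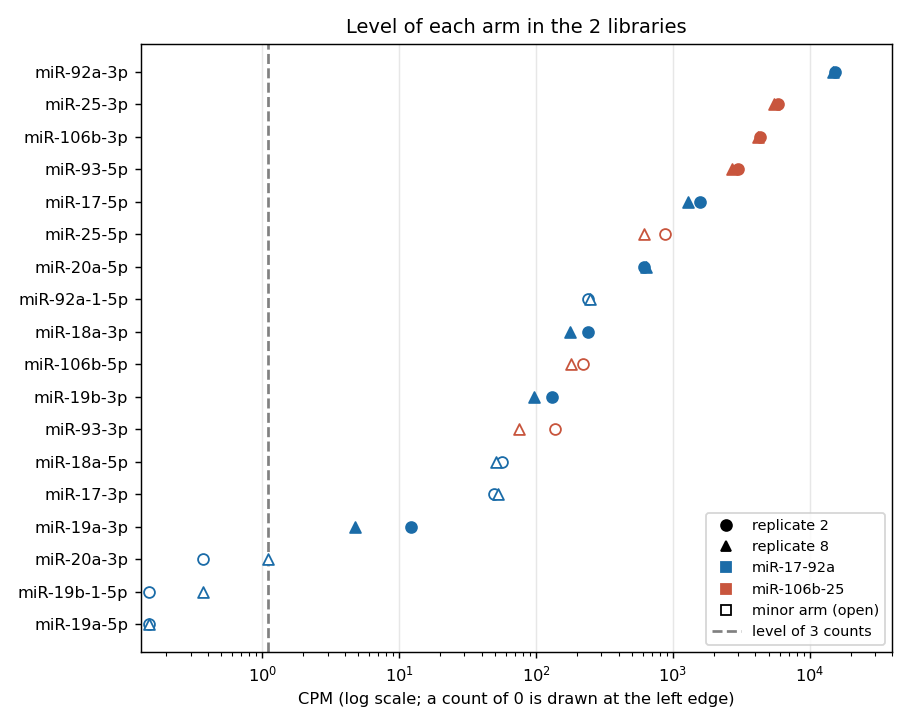
Level of each of the 18 arms in CPM (log axis) in replicate 2 (circles) and replicate 8 (triangles), coloured by cluster, with minor arms as open symbols and the dashed line at the level of 3 counts. The leading arms run from miR-92a-3p at 14950 CPM to miR-19a-3p at 8.45 CPM without overlap between neighbours.

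Within the clusters the leading arms spanned very different ranges. In the miR-17-92a cluster the highest leading arm, miR-92a-3p, had 1260 times the counts of the lowest, miR-19a-3p, in replicate 2 and 3068 times in replicate 8, a log2 range of 10.94 ± 0.91 (SD, n = 2). In the miR-106b-25 cluster miR-25-3p had 1.97 and 2.03 times the counts of miR-93-5p, a log2 range of 0.98 in replicate 2 and 1.02 in replicate 8. Other clusters gave ranges between these 2 or below them. The log2 range was 5.16 for miR-183, miR-96 and miR-182, 3.93 for miR-23b, miR-27b and miR-24-1, and 3.76 for miR-99b, let-7e and miR-125a. It was 2.20 for miR-23a, miR-27a and miR-24-2 and 0.073 for miR-221 and miR-222. With miR-92a-3p and miR-19b-3p left out, the range of the miR-17-92a cluster was 7.55, still above these. It then ran from miR-17-5p, with 4317 and 3502 counts, to miR-19a-3p, with only 33 and 13. The next lowest of the arms left, miR-18a-3p, had 654 and 486 counts. Without miR-19a-3p as well, the range would lie between 3.76 and 2.20, so the wide range rests on that rare arm. Shared names were not left out of the other clusters. Their highest arm miR-24-3p is listed at both mir-24-1 (74756 and 82819 counts) and mir-24-2 (74636 and 82730), so the ranges 3.93 and 2.20 rest on a shared name. The ranges depend on how many hairpins a cluster has, 6 here and 2 or 3 in the others, and were not tested.

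**Figure D2:**
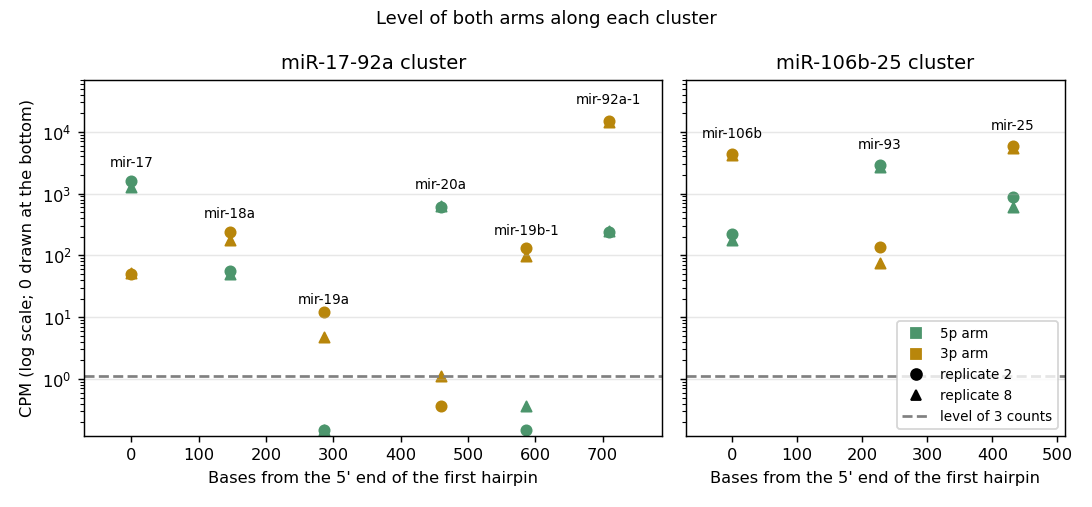
CPM (log axis) of the 5p arm (green) and 3p arm (ochre) of each hairpin against its distance in bases from the 5′ end of the first hairpin of its cluster, replicate 2 as circles and replicate 8 as triangles. In the miR-17-92a cluster the leading arms fall from mir-17 to mir-19a and are highest at mir-92a-1, 709 bases on, whereas the leading arms of the miR-106b-25 cluster stay within 2829 to 5662 CPM. The 3p counts of mir-92a-1 and mir-19b-1 are also listed at chromosome X hairpins.

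The hairpins of the lowest and of the highest member are shown because they come from the same transcript, with both mature arms in capitals:
mir-19a: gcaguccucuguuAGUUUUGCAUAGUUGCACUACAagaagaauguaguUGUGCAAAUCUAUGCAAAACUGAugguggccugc
mir-92a-1: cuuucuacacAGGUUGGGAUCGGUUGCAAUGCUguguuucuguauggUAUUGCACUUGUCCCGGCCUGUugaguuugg
The leading arm of the first has a GC content of 34.8%, the lowest of the 9 leading arms, and that of the second 54.5%. The highest was 63.6%, in miR-106b-3p. Across the 9 leading arms GC content and log2(CPM + 1) had a Pearson's r of 0.70 and a Spearman's rho of 0.62. Across the 15 detected member arms r was 0.51 and rho 0.43, and across the 435 detected miRNA names with a RefSeq sequence they had an r of -0.12 and a rho of -0.09. These are descriptions across sequences that share seeds, a transcript and the same libraries. The first base also differed between arms: of the 9 leading arms 4 begin with U, 4 with C and 1 with A, whereas of the 9 minor arms 7 begin with A and 2 with U. Among the 435 detected names 42.3% begin with U, 20.5% with C and 28.5% with A.

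Summed by seed, the miR-92/25 family was the largest. Its members miR-92a-3p and miR-25-3p summed to 57455 and 54855 counts, which is 64.9% (Wilson interval 64.6 to 65.2) and 66.1% (65.8 to 66.5) of the member counts. Without miR-92a-3p and miR-19b-3p, which are also listed at chromosome X hairpins, the share of this seed was 34.5%. Of the summed counts, miR-25-3p gave 27.6% and 27.3%. Seeds were looked up only for the 1716 of 2042 names matched in RefSeq. Among these, the most abundant miRNA with this seed outside the clusters was miR-92b-3p, from a hairpin of its own, with 3574 and 3008 counts. The clusters' members made up 94.0% and 94.7% of the counts of matched names with that seed.

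The miR-17 seed was supplied by both clusters. The 4 arms with this seed summed to 14622 counts in replicate 2 and 13095 in replicate 8, or 5087 ± 405 CPM (SD, n = 2). The miR-106b-25 cluster supplied 59.1% of them in replicate 2 and 60.0% in replicate 8, almost all through miR-93-5p, which had 1.86 and 2.10 times the counts of miR-17-5p. The arm miR-106b-5p contributed little, with 600 and 489 counts, or 200 ± 29.1 CPM, and its ratio to miR-17-5p was 0.139 and 0.140. The miR-19 seed summed to 387 and 277 counts and the miR-18 seed to 154 and 138 counts, and neither is present in the miR-106b-25 cluster.

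**Figure D3:**
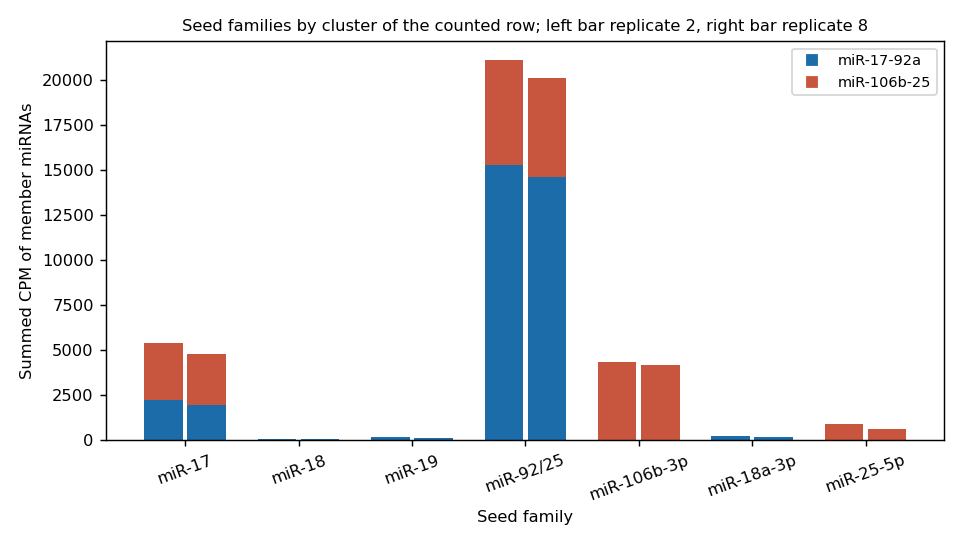
CPM summed over the member miRNAs of each seed family, stacked by the cluster whose row was counted, with replicate 2 as the left and replicate 8 as the right bar of each pair. The miR-92/25 seed stands at 21113 and 20111 CPM, of which miR-25-3p gives 27.6% and 27.3% and the rest is miR-92a-3p, which is also listed at a hairpin on chromosome X. Of the miR-17 seed 59.1% and 60.0% are counts of the miR-106b-25 rows.

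The relatives from chromosome X with names of their own were rare and miR-92b was not. The third cluster of the family, miR-106a-363 on chromosome X, has 12 rows, of which 2 carry the names miR-92a-3p and miR-19b-3p. The other 10 rows had 92 counts in replicate 2 and 75 in replicate 8 in sum, and 3 of them were detected. These were miR-106a-5p with 38 and 26 counts, miR-363-3p with 37 and 32, and miR-20b-5p with 15 and 11. Another 5 rows of the 10 had no count in either library, among them both opposite arms of the hairpins that share their mature sequence with the chromosome 13 cluster, miR-92a-2-5p and miR-19b-2-5p. Of their chromosome 13 counterparts, miR-92a-1-5p had 647 and 670 counts, but miR-19b-1-5p had only 0 and 1. From which hairpin the shared reads came was not tested. The arm miR-106a-5p differs from miR-17-5p at the first base alone (C1A, miR-17-5p first). Whether its few counts include reads of that far more abundant relative was not tested. By the test between libraries described below, with total counts, none of these 3 detected arms passed, with exact binomial adjusted p of 0.27, 0.71 and 0.62 in the order given. Of 9 rows from 5 further hairpins with a member seed in an arm, 3 were detected: miR-92b-3p, miR-92b-5p with 1109 and 810 counts, and miR-32-5p with 24 and 20. By the same test both miR-92b arms passed and were lower in replicate 8, miR-92b-3p with a log2 ratio of -0.25 (exact binomial adjusted p = 1.7e-11) and miR-92b-5p with -0.46 (exact binomial adjusted p = 5.9e-11), and miR-32-5p did not pass (exact binomial adjusted p = 0.71). The miR-32-3p arm had 5 and 6 counts, and the arms of mir-367, mir-519d and mir-526b had none.

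For 6 of the 9 hairpins the 3p arm led in both libraries, for mir-17, mir-20a and mir-93 the 5p arm. A 3p arm led in 42.6% of the 202 hairpins of the table with a named 5p and 3p arm and at least 50 counts over both in each library. Of the 9 member hairpins 8 met that limit, and 5 of the 8 had a leading 3p arm; mir-19a did not reach it. In 6 of the 8 a single arm was dominant, with over 90% of the hairpin's counts in either library, against 69.8% of all 202. The 5p arm was the dominant one for mir-17, mir-20a and mir-93, and the 3p arm for mir-19b-1, mir-92a-1 and mir-106b. For mir-19b-1 and mir-92a-1 the 3p counts are also listed at chromosome X hairpins, so their own arm shares are not known. The exceptions were mir-18a and mir-25.

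The arm usage of hsa-mir-106b went against the arm that carries the family seed. Its 3p arm had 11725 counts against 600 for the 5p arm in replicate 2, and 11374 against 489 in replicate 8, so that the 3p arm held 95.1% (Wilson interval 94.7 to 95.5) and 95.9% (95.5 to 96.2). The counts of miR-106b-3p were 19.5 and 23.3 times those of miR-106b-5p. The same held less strongly for mir-18a, whose 3p arm held 80.9% (78.1 to 83.5) and 77.9% (74.5 to 81.0) and had 4.25 and 3.52 times the counts of the 5p arm. These hairpins are shown with both arms in capitals:
mir-106b: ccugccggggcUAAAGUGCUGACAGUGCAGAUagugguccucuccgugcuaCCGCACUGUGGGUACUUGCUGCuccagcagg
mir-18a: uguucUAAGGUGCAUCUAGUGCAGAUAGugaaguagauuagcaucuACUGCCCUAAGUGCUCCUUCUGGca
The table's seed relatives of miR-106b-5p led from their own hairpins: miR-17-5p held 97.0% and 96.1% of mir-17, miR-20a-5p 99.9% and 99.8% of mir-20a, and miR-93-5p 95.6% and 97.3% of mir-93. The part of ligation and PCR, which can favour an arm, was not tested.

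At the other end of the MCM7 cluster both arms of mir-25 were abundant. The minor arm miR-25-5p had 2369 and 1681 counts, 743 ± 180 CPM (SD, n = 2), more than any other minor arm of either cluster. Its share of the hairpin was 13.0% (Wilson interval 12.5 to 13.5) and 10.1% (9.65 to 10.6). The rows of mir-92a-1, its relative in the other cluster, gave a 5p share of 1.53% and 1.65%. Since the 3p counts there are also listed at mir-92a-2, that hairpin's own share is not known and may be higher.

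The arm share of the MCM7 hairpins differed between the libraries. By Fisher's exact test on arm and library (two-sided, Benjamini-Hochberg adjusted over the 202 hairpins), 3 of the 8 member hairpins passed at 0.05, against 19.8% of all hairpins, and these were mir-25, mir-93 and mir-106b. From replicate 2 to replicate 8 the 5p share of hsa-mir-25 differed by -2.88 percentage points (Fisher's exact adjusted p = 1.1e-15). The difference was 1.71 points for hsa-mir-93 (Fisher's exact adjusted p = 9.5e-08) and -0.75 points for hsa-mir-106b (Fisher's exact adjusted p = 0.028). In each of them the minor arm had the smaller share in replicate 8. None of the 5 tested hairpins of the miR-17-92a cluster passed, with differences from 0.11 to 3.06 points in size and the largest for hsa-mir-18a (Fisher's exact adjusted p = 0.42), and the smallest Fisher's exact adjusted p was 0.12, for hsa-mir-17. The test holds counting error only, and whether the clusters differ in this was not tested. The median size of the difference was 0.83 points over the 8 member hairpins and 0.66 over all 202.

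**Figure D4:**
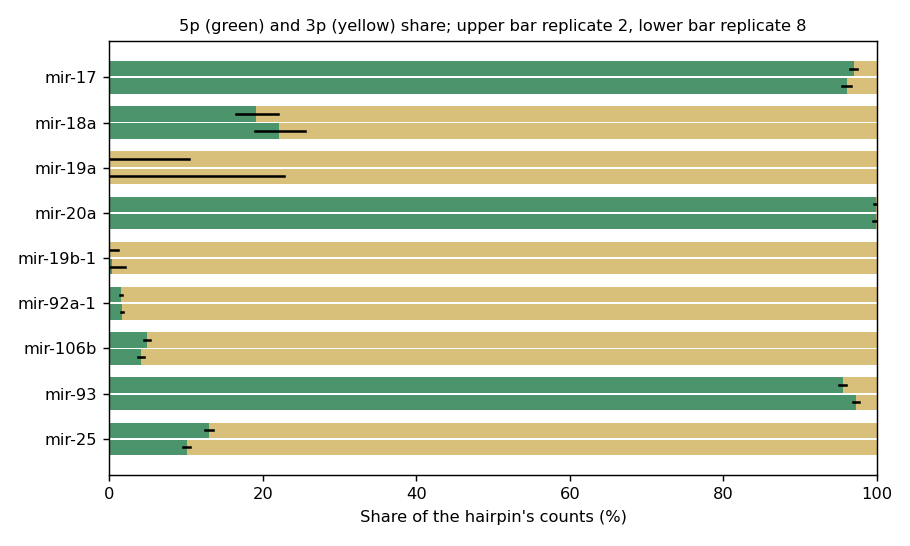
Share of each hairpin's counts in the 5p arm (green) and the 3p arm (yellow), in percent, with replicate 2 as the upper and replicate 8 as the lower bar and black lines for the 95% Wilson intervals of the 5p share. The 5p arm leads in mir-17, mir-20a and mir-93, and both arms are visible in mir-18a and mir-25. For mir-19b-1 and mir-92a-1 the 3p counts are also listed at chromosome X hairpins.

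With a single group there is no comparison of conditions, so the libraries were compared with each other. Each miRNA's split between replicate 2 and replicate 8 was set against the split of the total counts by a two-sided exact binomial test, with Benjamini-Hochberg adjustment over the 695 names with at least 10 summed counts. It compares 2 libraries and holds counting error only. Of 15 members tested, 11 passed at 0.05, against 34.2% of all names tested and 54.8% of those with at least 100 summed counts, to which 14 of the 15 belong. All 11 were lower in replicate 8 and none higher, where 23.5% of all names tested were lower and 10.8% higher. The median log2 ratio of replicate 8 over replicate 2 was -0.16 over the 15 members and -0.11 over all 695 names, and the median size was 0.16 and 0.33.

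Most of these differences were small, and for 3 abundant arms the direction changed with the scaling of the libraries. TMM and DESeq2 size factors raise every log2 ratio, by 0.09 and 0.11. With TMM 7 members passed (32.2% of all names), 1 of them higher and 6 lower in replicate 8. Under DESeq2 size factors the number was 9 (31.9% of all names), of which 3 were higher and 6 lower. For the first of these arms, miR-92a-3p, the log2 ratio was -0.063 with total counts, 0.024 with TMM and 0.051 with DESeq2 size factors, and that of miR-106b-3p was -0.047, 0.040 and 0.066. For miR-25-3p it was -0.089, -0.0024 and 0.024. The arms miR-25-3p, miR-93-5p and miR-106b-5p passed with total counts alone, while miR-20a-5p passed with the other scalings alone and was then higher in replicate 8.

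Under all 3 scalings 6 members passed the test and were lower in replicate 8: miR-17-5p, miR-18a-3p, miR-19a-3p, miR-19b-3p, miR-93-3p and miR-25-5p. The minor arm miR-93-3p was at 372 counts in replicate 2 against 205 in replicate 8. Its log2 ratio was -0.86, with an interval from -1.12 to -0.61 (exact binomial adjusted p = 2.6e-11). For miR-25-5p the ratio stood at -0.50 (-0.59 to -0.41), with an exact binomial adjusted p of 2.1e-26, and for miR-17-5p at -0.31 (-0.37 to -0.24), with an exact binomial adjusted p of 1.6e-19. The miR-19 arms and miR-18a-3p had ratios of -0.43 (miR-18a-3p), -0.43 (miR-19b-3p) and -1.31 (miR-19a-3p, interval -2.40 to -0.38), the last on 46 counts in all. Fitted with total counts, miR-17-3p, miR-18a-5p, miR-20a-5p and miR-92a-1-5p did not pass, with log2 ratios of 0.09, -0.16, 0.06 and 0.05.

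**Figure D5:**
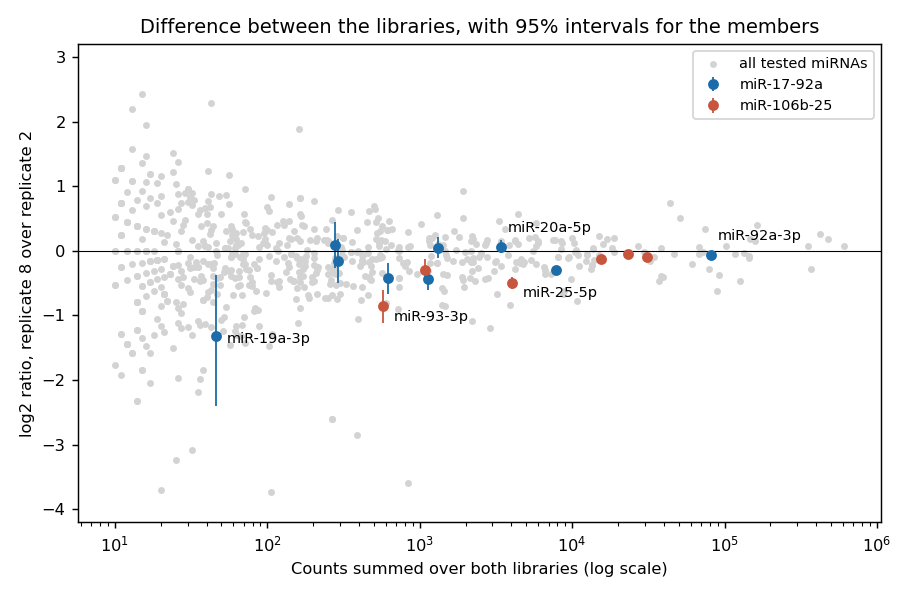
Log2 ratio of replicate 8 over replicate 2 against the counts summed over both libraries (log axis) for the 695 tested miRNA names (grey) and the 15 tested members (coloured by cluster, with 95% intervals). The members lie between -1.31 (miR-19a-3p) and 0.09 (miR-17-3p), and the intervals narrow towards miR-92a-3p.

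The miRNAs outside the clusters with the most similar levels were found by distance in log2(CPM + 1) over the 2 libraries, which with 2 points shows likeness of level and little else. Nearest to miR-92a-3p were miR-423-5p, miR-221-3p and miR-191-5p, at distances of 0.17, 0.26 and 0.32. Nearest to miR-25-3p were miR-27b-3p, miR-181b-5p and miR-146a-5p, at 0.10, 0.10 and 0.23. Nearest to miR-19a-3p were miR-3960, miR-4454 and miR-4516, at 0.13, 0.21 and 0.25, each with 30 to 36 counts in replicate 2 and 13 to 16 in replicate 8.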

How the data were processed

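Small RNA of 2 hCMEC/D3 libraries was sequenced. Per the labels' protocols, adaptors were ligated to small RNAs of total RNA, and libraries were PCR-amplified and size-selected on a gel, with no molecular identifiers mentioned. Per the submitters' processing notes the tools were CASAVA 1.9, FastQC, cutadapt and Bowtie 0.12.7 and the build hg19; the counter, the miRBase release and the rule for reads that fit several hairpins are not given in the sources used here. The authors deposited raw counts, and RPM, which divides them by 1 constant per library, per the file headers and the values.

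Where a mature name has several rows, the one with the highest mean was kept for totals and for tests across all names, which left out 14.1% and 14.6% of the summed counts as repeats. Shares have 95% Wilson intervals and log2 ratios, taken after adding 0.5 counts, exact intervals. With 1 group edgeR's quasi-likelihood test could not be applied. Both tests were run on simulated Poisson counts with planted changes and no spread between libraries beyond counting error. That simulation cannot show how many calls such a spread would give. Versions were Python 3.11.15, SciPy 1.17.1, edgeR 4.0.16 (TMM) and DESeq2 1.42.0 (size factors). Hairpins were located by exact match of the RefSeq sequence in GRCh37, MIR93 by the GENCODE annotation on that build. Members, lists, marker miRNAs and compared clusters were chosen with earlier results of these data known. Named miRNAs are all member rows, the seed relatives above 3 counts, and the 3 nearest miRNAs of 3 members; examples among these were chosen after their values were seen. Alternatives covered denominators, scaling, count filters, pseudocounts, minor arms, shared names and each library left out.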

Additional observations from a re-analysis of the deposited data

How the results depend on the processing

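Over 10 summary results, 43 values were recomputed, of which 31 stayed close to the reported ones, 11 moved and 1 reversed. Leaving out the names also listed for another hairpin reversed the ratio of miR-106b-25 to miR-17-92a, which became 5.26. It also lowered the miR-17-92a share of counts to 0.262%, the log2 range of its leading arms to 7.55 and the miR-92/25 share of member counts to 34.5%, by construction, since miR-92a-3p was removed. With all rows as the denominator the shares of counts were 1.51% (miR-17-92a) and 1.18% (miR-106b-25), and with the deposited RPM they were 1.51% and 1.18%, since these totals hold repeated rows. With leading arms only, the miR-106b-25 share was 1.27%, its ratio to miR-17-92a 0.734 and the miR-92/25 share 68.6%. With TMM 7 members differed between the libraries in place of 11; the scaling shift is given above. For single arms, the reversed log2 ratios were 0.024 (TMM) and 0.051 (DESeq2 size factors) for miR-92a-3p, 0.040 and 0.066 for miR-106b-3p and 0.024 for miR-25-3p with DESeq2 size factors. Among the other recomputed log2 ratios of single arms, 5 lost and 2 gained their call and 48 did neither. Pseudocounts of 0.1 and 10 reversed none of the 15 log2 ratios. They do not enter the test, so their values, which are among the 48, could not lose or gain a call. With 1 library left out, a mean of 2 moves by less than its SD by construction: the shares were 1.72% to 1.82% and 1.32% to 1.43%, the ratio 0.770 to 0.787. Such values are among the 31 that stayed close. So are the shares under TMM and DESeq2 size factors, whose factors nearly cancel in a mean over both libraries. No paired analysis was possible because there is a single group. Below about 10 counts, as for 3 minor arms, the depth allows no statement beyond the limit of 3 counts.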
